A study of Mus musculus with 3 samples.

Results

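The matrix metalloproteinases and their tissue inhibitors described here are 10 genes of the 32285 listed in the count matrices: the proteases Mmp2, Mmp3, Mmp12, Mmp14, Mmp19 and Mmp23 and the inhibitors Timp1, Timp2, Timp3 and Timp4. They were taken by symbol, and all 10 were present. Cells came from the adventitia, the outer coat of the aortic wall, of mice. The Vehicle group received saline, the AngII group received angiotensin II, and the AngII_VWR group received angiotensin II and ran voluntarily on wheels. AngII, a blood-pressure-raising peptide, was thus shared by the running mice and the group they are compared with. Each group of 3 mice was deposited as 1 library, how the mice were combined is not given, and the labels give no strain, age, dose or duration. With 1 library per group no test of a treatment can be made, so levels and ratios are given with 95% intervals that cover counting error only, not the spread between mice or preparations.

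Matrix metalloproteinases are zinc enzymes that cut collagens, elastin, proteoglycans and other proteins outside the cell. Most are made as inactive precursors, and activation often runs in a chain: the membrane-anchored Mmp14, together with a molecule of Timp2, docks and activates pro-Mmp2, while Mmp3 activates several other members. Timp proteins bind the active site of the enzymes and block it. In the vessel wall these genes are known for the remodelling of collagen and elastic fibres, and transcription of Mmp3 and Timp1 is known to respond to AP-1, the dimers of Fos and Jun proteins.

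The proximal promoters of 3 members are shown because the AP-1 consensus TGANTCA, or a close relative of it, lies within 50 bases of their transcription start. RefSeq sequences of the GRCm38.p6 assembly covered 8 of the 10 members in 10 windows, each running from 250 bases before to 50 bases after a start. Both strands were searched for TGANTCA, and capitals mark each match. The Mmp3 window (chr9:7445572-7445871, plus strand) holds 1 match beginning 46 bases before the start, and the second of the 2 Mmp12 windows (chr9:7347124-7347423, plus strand) holds 1 match beginning 44 bases before it. The Timp1 window (chrX:20869916-20870215, plus strand) holds no TGANTCA, but it holds the related letters TGAGTAA beginning at base 27 after the start.
Mmp3 promoter: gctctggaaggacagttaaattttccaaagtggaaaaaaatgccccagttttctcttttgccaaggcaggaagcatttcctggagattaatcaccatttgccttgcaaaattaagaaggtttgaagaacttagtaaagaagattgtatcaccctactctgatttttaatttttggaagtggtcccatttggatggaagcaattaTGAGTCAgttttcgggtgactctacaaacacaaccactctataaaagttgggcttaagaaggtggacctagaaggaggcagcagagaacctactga
Mmp12 second promoter: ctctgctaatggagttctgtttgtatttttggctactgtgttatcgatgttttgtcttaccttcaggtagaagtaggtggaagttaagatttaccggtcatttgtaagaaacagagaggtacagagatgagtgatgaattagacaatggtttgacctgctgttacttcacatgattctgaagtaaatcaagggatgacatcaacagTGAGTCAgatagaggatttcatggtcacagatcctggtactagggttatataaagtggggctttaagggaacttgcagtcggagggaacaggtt
Timp1 promoter: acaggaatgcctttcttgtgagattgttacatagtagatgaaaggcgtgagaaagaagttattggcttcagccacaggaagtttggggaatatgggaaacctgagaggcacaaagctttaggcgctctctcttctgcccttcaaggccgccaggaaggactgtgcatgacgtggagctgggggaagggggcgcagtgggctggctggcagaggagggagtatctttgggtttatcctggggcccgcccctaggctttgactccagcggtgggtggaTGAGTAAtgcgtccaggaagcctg
TGANTCA occurred in 2565 of 32851 mouse promoter windows of the same length (7.81%), and TGAGTAA in 880 (2.68%). The other 7 windows of the members held neither motif, which says only that these letters are not in those windows. A match is a string of letters and was not tested as a binding site.

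The fibroblast class held cells with at least 1% of their UMIs in Col1a1, Col1a2, Dcn and Lum, and the macrophage class cells with at least 0.3% in C1qa, C1qb and C1qc. UMIs are molecules counted after removal of amplification copies. After filtering, the fibroblast class held 6545 cells in Vehicle, 6081 in AngII and 10913 in AngII_VWR, and the macrophage class 2537, 1998 and 3221. The remaining cells numbered 3177, 1022 and 1915, and 65, 14 and 76 cells that met both rules were set apart. All 8 further fibroblast markers and all 8 further macrophage markers were at or above 87.9 CPM (UMIs per 1000000 UMIs of the class) in their own class in every library. The median depth per fibroblast-class cell was 9494, 12993 and 4590 UMIs, and AngII_VWR was also the only library counted with Cell Ranger 7.1.0 instead of 7.0.1. Pairs of libraries shared 44 to 80 barcodes, at most 0.647% of the smaller library.

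Macrophage-class cells carried fibroblast RNA, and more of it in AngII_VWR. The 8 fibroblast markers summed to 594, 504 and 1324 CPM in the macrophage class of Vehicle, AngII and AngII_VWR, which is 2.26%, 2.18% and 5.88% of their level in the fibroblast class. In the 148, 73 and 96 cells of a T cell gate (at least 0.1% of UMIs in Cd3d, Cd3e and Cd3g) the same sum was 2.46%, 1.87% and 9.02% of the fibroblast level. A member whose level outside the fibroblast class stays near these percentages is not distinguished here from carried-over fibroblast RNA.

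A gene counted as measured in a pair of libraries at 10 CPM or more in the higher library and at least 20 UMIs over the pair. Ratios were read relative to the median ratio of all measured genes of the class, and 1.5-fold in either direction was the threshold. In the fibroblast class 8 of the 10 members were measured. Between AngII and Vehicle 1 of them was higher past the threshold (Mmp2) and 0 lower, where 7.92% of 8831 measured genes were higher and 3.9% lower. Between AngII_VWR and AngII 1 was higher (Mmp3) and 1 lower (Mmp2), where 4.44% of 8961 measured genes were higher and 7.19% lower. These are 1 of 8 members in each direction that was passed, and nothing particular to the members is read from them. The median measured gene itself lay at 0.11 on the log2 scale in AngII_VWR over AngII, and without that correction the count was 2 higher (Mmp3 and Timp3) and 0 lower. The median of the 8 members relative to the median gene was 0.21 on the log2 scale in the first comparison and 0.07 in the second. Both comparisons use the AngII library, so their values are set side by side and not correlated.

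**Figure D1:**
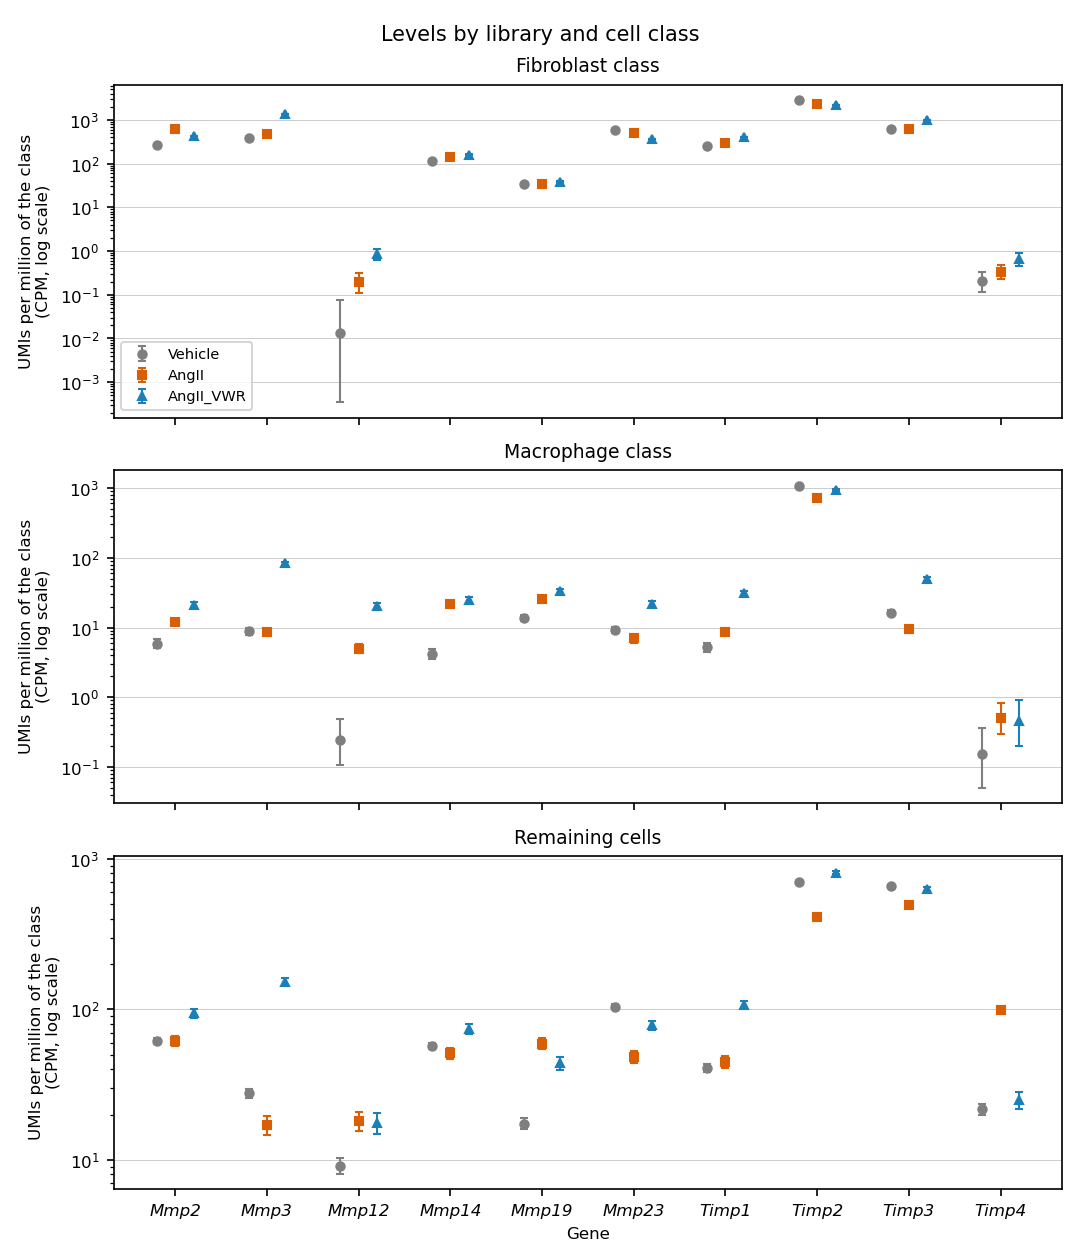
Levels of the 10 genes in UMIs per 1000000 of the class (log axis) in the fibroblast class, the macrophage class and the remaining cells of the 3 libraries; points are single libraries and bars are exact Poisson 95% intervals for counting error. Fibroblast Mmp2 is highest in AngII (602 CPM) and Mmp3 in AngII_VWR (1354 CPM), while Mmp12 and Timp4 stay under 1 CPM in fibroblasts.

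Mmp2, the gelatinase that cuts denatured collagen and type IV collagen (chr8:92827291-92853420 in mm10, plus strand), followed AngII. In the fibroblast class it was at 260 CPM in Vehicle (interval 256 to 263), 602 in AngII (597 to 608) and 417 in AngII_VWR (412 to 423). AngII was thus the highest library, AngII_VWR lay between the other two, and no intervals overlapped. AngII over Vehicle was 2.32-fold (2.28 to 2.36), or 1.30 on the log2 scale relative to the median gene, percentile 97.7 of measured genes. AngII_VWR over AngII was 0.693-fold (0.682 to 0.703), or -0.64 relative to the median gene, percentile 6.08.

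Mmp2 was higher in AngII than in Vehicle in progenitor, activated and ungated cells of the fibroblast class, with the smallest difference in activated cells. The class was divided by 3 gates: a progenitor gate (at least 0.1% of UMIs in Dpp4, Pi16, Cd55 and Sema3c), an activated gate (at least 0.2% in Comp, Cthrc1, Thbs4, Postn, Tnc and Col8a1) and a Saa3 gate (at least 0.1% in Saa3, an acute-phase protein). In progenitor-gate cells Mmp2 was at 243 CPM in Vehicle, 508 in AngII and 375 in AngII_VWR. In activated-gate cells it was at 519, 639 and 478 CPM, and in cells of no gate at 310, 469 and 382 CPM. AngII was the highest library in all 3 sets, and AngII_VWR was lower than AngII in all 3. Cells in more than 1 gate are in none of these sets. In the activated gate AngII_VWR was also below Vehicle, with 82 cells behind the Vehicle value. The activated gate itself held 1.25% of fibroblast-class cells in Vehicle, 21.7% in AngII and 12.5% in AngII_VWR, with a further 4.11%, 19.3% and 10.8% in more than 1 gate. Without any activated-gate cell the AngII ratio to Vehicle was 1.01 on the log2 scale relative to the median gene, still past 1.5-fold. The running ratio was then -0.40, no longer past it.

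With every cell thinned to 2000 UMIs to equalise depth, 35.7% of fibroblast-class cells had an Mmp2 UMI in Vehicle, 56.1% in AngII and 46.4% in AngII_VWR, against 68.6%, 86.7% and 64.7% before thinning. Thinning left out 987, 477 and 2141 shallower fibroblast-class cells. The order of the thinned shares was that of the levels.

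Mmp3, stromelysin, which cuts proteoglycans and activates other proteases of the family (chr9:7445822-7455975, plus strand), followed the running library. Its fibroblast-class level was 390 CPM in Vehicle (386 to 395), 463 in AngII (458 to 467) and 1354 in AngII_VWR (1345 to 1364). Vehicle and AngII lay close together and AngII_VWR stood apart from both. AngII_VWR over AngII was 2.93-fold (2.89 to 2.96), or 1.44 relative to the median gene, percentile 99.2. The ratio of AngII over Vehicle was 1.18-fold (1.17 to 1.2), short of the threshold.

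Mmp3 was unevenly spread among fibroblasts. After thinning, 22.3% of fibroblast-class cells had an Mmp3 UMI in Vehicle, 23.9% in AngII and 44.0% in AngII_VWR. Those shares in the macrophage class were 1.78%, 1.78% and 15.4%, with median depths before thinning of 12871, 15173.5 and 4878 UMIs. The 5% of fibroblast-class cells with the most thinned Mmp3 UMIs held 61.2%, 59.3% and 47.7% of them, whereas for Timp2 the top 5% held 14.6%, 15.5% and 13.6%. The highest thinned cell had 49, 46 and 127 Mmp3 UMIs of 2000.

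In progenitor-gate cells Mmp3 was at 331 CPM in Vehicle, 454 in AngII and 950 in AngII_VWR. In cells of no gate it was at 715, 684 and 1614 CPM. In activated-gate cells it was at 874, 360 and 885 CPM, so that there AngII was lower than both other libraries, with 82 cells behind the Vehicle value. AngII_VWR was higher than AngII in all 3 sets.

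The Saa3 gate stood far above them. No Vehicle fibroblast met it, 19 did in AngII and 80 in AngII_VWR, counting cells that also met another gate. Mmp3 in these cells was at 1982 CPM in AngII (1854 to 2116) and 11261 in AngII_VWR (11071 to 11454), and the 80 cells held 16.3% of all Mmp3 UMIs of the running library. Outside the gate Mmp3 was at 454 CPM in AngII and 1148 in AngII_VWR, and the relative log2 ratio was 1.23. The running library therefore had more Mmp3 both with and without these cells.

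**Figure D2:**
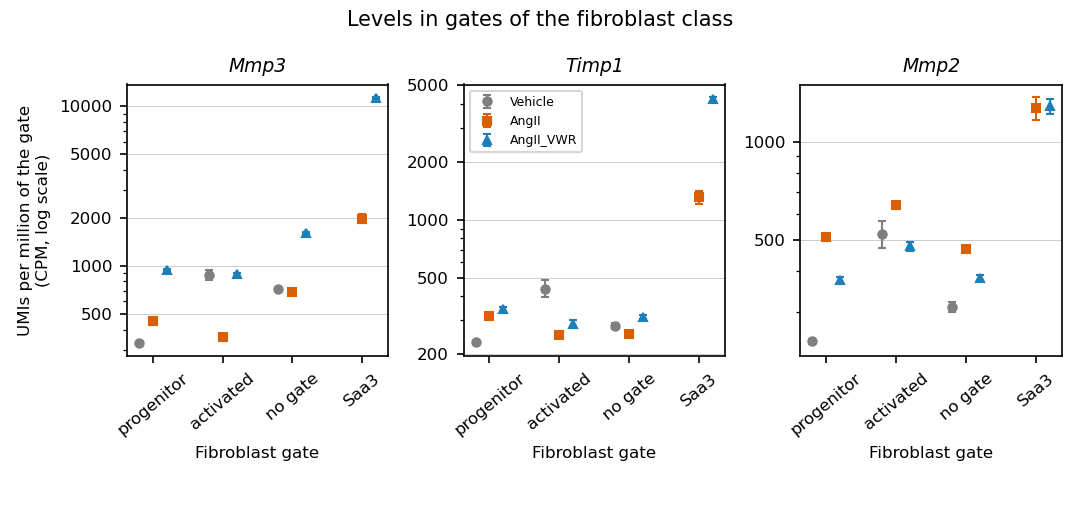
Mmp3, Timp1 and Mmp2 in gates of the fibroblast class (UMIs per 1000000 of the gate, log axes that do not start at 0); each point is 1 library and bars are exact Poisson 95% intervals for counting error. The Saa3 gate of AngII_VWR reaches 11261 CPM for Mmp3 and 4240 CPM for Timp1, above every other gate drawn; Mmp2 is highest in AngII in the progenitor gate, the activated gate and the ungated cells.

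In macrophages and in T cell gate cells Mmp3 was higher in AngII_VWR than in AngII, as was the fibroblast markers' share. The macrophage class had 8.86 CPM in Vehicle, 8.48 in AngII and 83.0 in AngII_VWR, a 9.78-fold ratio (8.58 to 11.2) between AngII_VWR and AngII. As a share of the fibroblast level these are 2.27%, 1.83% and 6.13%, against 2.26%, 2.18% and 5.88% for the fibroblast markers. T cell gate cells had 3.6, 10.0 and 81.3 CPM, from 4, 6 and 26 UMIs. Macrophages and T cells thus reached nearly the same Mmp3 level in the running library, and the macrophage value is not distinguished from carried-over fibroblast RNA.

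Mmp14, the membrane-anchored collagenase that activates pro-Mmp2 (chr14:54431612-54445364, plus strand), passed the threshold in macrophages and not in fibroblasts. In the fibroblast class it was at 114 CPM in Vehicle, 143 in AngII and 161 in AngII_VWR, with ratios of 1.26 (1.22 to 1.29) and 1.12 (1.09 to 1.15). The levels stood in that order without overlapping intervals, and neither ratio passed the threshold. In the macrophage class it was at 4.23 CPM in Vehicle (3.55 to 5.00), 21.5 in AngII (19.9 to 23.2) and 24.7 in AngII_VWR (22.4 to 27.1). AngII over Vehicle was 5.09-fold (4.23 to 6.16), or 2.35 relative to the median gene, percentile 99.3, and AngII_VWR over AngII was 1.15-fold (1.01 to 1.29).

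The macrophage level of Mmp14 was 3.71%, 15.0% and 15.3% of the fibroblast level, so it was above the fibroblast markers' share in AngII and AngII_VWR and near it in Vehicle. T cell gate cells had 4.49, 3.34 and 9.38 CPM. After thinning, 0.847%, 3.16% and 3.98% of macrophage-class cells had an Mmp14 UMI, with Clopper-Pearson intervals of 0.518% to 1.31%, 2.43% to 4.03% and 3.28% to 4.78%. The Vehicle level lay inside the T cell gate's interval (1.46 to 10.5 CPM), so the lower side of the ratio is not distinguished from carried-over RNA. The AngII_VWR level also lay inside the T cell gate's interval there (1.93 to 27.4 CPM, from 3 UMIs). The AngII level lay above that of its library (0.404 to 12.1 CPM, from 2 UMIs). Without doublet removal the relative log2 ratio was 1.40 instead of 2.35, still past the threshold. With a profile of the other cells subtracted at 5% of UMIs, above the markers' share in both libraries, the levels were 15.6 CPM in AngII and 0 in Vehicle.

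Mmp14 was higher in macrophages without the resident Lyve1 programme. In the Lyve1 gate (at least 0.1% of UMIs in Lyve1, Folr2, Cd163 and Timd4) it was at 3.98 CPM in Vehicle, 11.6 in AngII and 11.6 in AngII_VWR, and outside it at 8.70, 35.3 and 54.8 CPM. The cells outside the Lyve1 gate numbered 217, 839 and 1066. In Vehicle their fibroblast markers summed to 952 CPM, against 574 inside the gate, and in AngII to 517 against 495. Inside an Spp1 gate (at least 0.1% in Spp1, Gpnmb and Trem2) Mmp14 reached 81.2 CPM in the 32 cells of AngII and 88.5 in the 121 cells of AngII_VWR. AngII was higher than Vehicle both inside and outside the Lyve1 gate.

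Mmp23, an unusual membrane-bound member (chr4:155650655-155653384, minus strand), stepped down across the libraries in fibroblasts. It was at 596 CPM in Vehicle (591 to 602), 492 in AngII (487 to 497) and 366 in AngII_VWR (361 to 371). The ratio of AngII over Vehicle was 0.825-fold (0.814 to 0.837) and AngII_VWR over AngII 0.744-fold (0.732 to 0.757), neither past 1.5-fold relative to the median gene (-0.20 and -0.53). The second ratio was past it, on the lower side, with every cell thinned to 2000 UMIs (-0.81) and with each cell given the same weight (-0.73). After thinning, 64.5%, 59.4% and 47.8% of fibroblast-class cells had a UMI. The macrophage level of 9.23, 6.98 and 21.7 CPM was 1.55%, 1.42% and 5.94% of the fibroblast level, close to the fibroblast markers' share in AngII_VWR and below it in the other libraries.

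Mmp19, a soluble member that cuts basement-membrane proteins (chr10:128790910-128800824, plus strand), was flat in fibroblasts and differed in macrophages. Fibroblast-class cells had it at 33.6 CPM in Vehicle (32.3 to 35.0), 33.7 in AngII (32.4 to 35.0) and 38.1 in AngII_VWR (36.5 to 39.7). The Vehicle and AngII intervals overlapped almost wholly. Macrophage-class cells had it at 13.6 CPM in Vehicle (12.4 to 15.0), 25.6 in AngII (23.8 to 27.4) and 33.2 in AngII_VWR (30.5 to 36). AngII over Vehicle was 1.87-fold (1.67 to 2.11), or 0.91 relative to the median gene, and AngII_VWR over AngII was 1.30-fold (1.16 to 1.45), not past the threshold.

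In macrophages Mmp19 lay far above the fibroblast markers' share. Its level there was 40.6%, 75.9% and 87.0% of the fibroblast level, and T cell gate cells had 3.6, 1.67 and 6.25 CPM from 4, 1 and 2 UMIs. Inside the Lyve1 gate it was at 13.0, 22.8 and 29.0 CPM, and outside it at 24.9, 29.5 and 42.7. Among the remaining cells, an MHC class II gate (at least 1% of UMIs in H2-Aa, H2-Ab1, H2-Eb1 and Cd74; 131, 176 and 381 cells) had 111 CPM of Mmp19 in Vehicle (99.5 to 124), 129 in AngII (118 to 140) and 78.2 in AngII_VWR (68.3 to 89.1). That gate carried all 6 dendritic markers but also macrophage markers, which summed to 10118, 6509 and 5458 CPM, so it is not named as a pure dendritic set.

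Mmp12, macrophage elastase, which degrades elastin (chr9:7344381-7369499, plus strand), was carried by very few cells. Macrophage-class cells had it at 0.245 CPM in Vehicle (0.106 to 0.483), 4.99 in AngII (4.24 to 5.84) and 20.1 in AngII_VWR (18.1 to 22.4). These levels come from 8, 156 and 351 UMIs in 7, 21 and 30 cells, or 0.276%, 1.05% and 0.931% of macrophage-class cells before thinning. After thinning the shares were 0.0424%, 0.356% (0.143% to 0.733%) and 0.579% (0.331% to 0.939%), and the AngII and AngII_VWR intervals overlapped. The level was 4.03-fold higher in AngII_VWR than in AngII (3.33 to 4.90), and a single cell held up to 49 UMIs in AngII and 66 in AngII_VWR. The interval for UMIs is too narrow where so few cells carry them. With each cell given the same weight the relative log2 ratio was 1.08 instead of 1.85, at levels under the 10 CPM minimum. The ratio of AngII over Vehicle was 20.4-fold (10.1 to 48.0), with both libraries under the 10 CPM minimum.

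Of the 351 macrophage-class Mmp12 UMIs of the running library 228 lay in the Spp1 gate, in 8 of the 30 cells that had one. In that gate Mmp12 was at 30.5 CPM in AngII (15 UMIs in 2 cells) and 360 in AngII_VWR (121 cells), and 0 UMIs were found in the 25 Spp1-gate cells of Vehicle, whose depth allows up to 30.7 CPM (3 counts). Outside the Spp1 gate it was at 0.246, 4.59 and 7.32 CPM. Inside the Lyve1 gate it was at 0.129, 0.165 and 1.15 CPM, and outside at 2.32, 11.7 and 63.9. Most Mmp12 thus lay outside the Lyve1 gate in AngII and AngII_VWR. Among the remaining cells the MHC class II gate held 92.8, 45.8 and 46.2 CPM in the 3 libraries, from 18, 23 and 28 cells, and 1 Vehicle cell alone had 108 of the 271 UMIs. Fibroblast-class cells had 0.0137, 0.194 and 0.839 CPM, and 34 of the 49 UMIs of AngII_VWR lay in 5 cells of the Saa3 gate. T cell gate cells had 0 Mmp12 UMIs in all 3 libraries, which allows up to 2.70, 5.01 and 9.38 CPM.

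**Figure D3:**
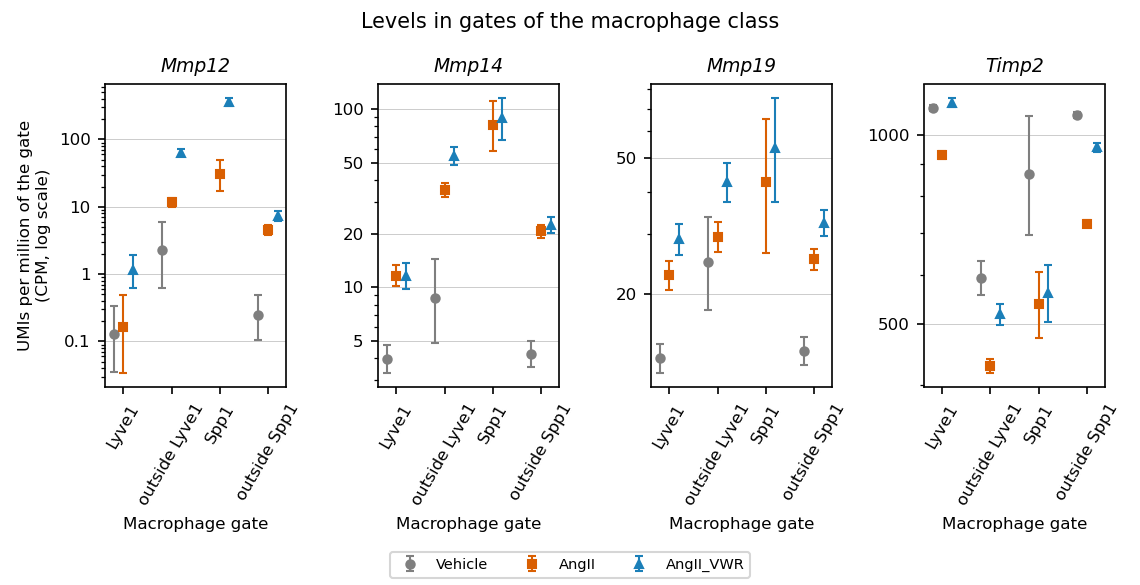
Mmp12, Mmp14, Mmp19 and Timp2 in macrophage-class cells inside and outside the Lyve1 and Spp1 gates (UMIs per 1000000 of the gate, log axes that do not start at 0, gates may overlap); each point is 1 library, bars are exact Poisson 95% intervals for counting error, and values of 0 are not drawn. Mmp12 and Mmp14 are higher outside than inside the Lyve1 gate in every library, and Timp2 is lower outside it. The Vehicle values of Mmp12 rest on 8 UMIs over the class.

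Timp1, a secreted inhibitor induced in injury and inflammation (chrX:20870166-20874735, plus strand), was at 247 CPM in the fibroblast class of Vehicle (244 to 251), 303 in AngII (299 to 307) and 408 in AngII_VWR (402 to 413). The libraries stood in that order with no overlap of intervals. AngII over Vehicle was 1.23-fold (1.2 to 1.25) and AngII_VWR over AngII 1.35-fold (1.32 to 1.37), neither past the threshold (0.37 and 0.32 relative to the median gene). With both class thresholds doubled the first of these was -0.03. After thinning, 36.3%, 41.0% and 38.6% of fibroblast-class cells had a UMI, so the share did not follow the level in AngII_VWR.

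In AngII and AngII_VWR Timp1 was higher inside the Saa3 gate than outside it, while most of its UMIs lay outside. The cells of the gate were at 1308 CPM of Timp1 in AngII and 4240 in AngII_VWR (4124 to 4359), and the 80 cells of AngII_VWR held 19.9% of all Timp1 UMIs of that library. Outside the gate Timp1 was at 297 CPM in AngII and 328 in AngII_VWR. With every cell thinned to the same depth the relative log2 ratio of AngII_VWR over AngII was -0.16, against 0.32 from the summed counts. In the same 80 cells Mmp14 was at 632 CPM against 151 outside, Mmp2 at 1281 against 399, and Timp3 at 406 against 982. Pooled over these cells, Mmp3, Timp1, Mmp14 and Mmp2 were thus higher than outside the gate and Timp3 lower. Whether the same single cells were high in all of these genes was not tested. The 43 cells of the Saa3 gate alone carried 34232 CPM of the 8 fibroblast markers, and no mesothelial or adipocyte marker of the lists used was detected in those 43. Neutrophil markers summed to 130 CPM in them, against 11.6 to 16.2 in the other gates of the running library's fibroblasts. The 7 such cells of AngII had 92.4 CPM of neutrophil and 888 of macrophage markers, against 3.83 to 18.6 and 146 to 156 in its other gates. The part of these other cells in the values of the gate was not tested.

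Timp2, the inhibitor that also takes part in pro-Mmp2 activation (chr11:118301069-118355740, minus strand), was found in nearly every fibroblast. Its fibroblast-class level was 2884 CPM in Vehicle (2872 to 2897), 2249 in AngII (2239 to 2260) and 2141 in AngII_VWR (2129 to 2153). AngII over Vehicle was 0.780-fold (0.775 to 0.785) and AngII_VWR over AngII 0.952-fold (0.945 to 0.959), neither past the threshold. After thinning, 97.7%, 96.4% and 96.5% of fibroblast-class cells had a UMI. In activated-gate cells it was at 1910, 1791 and 1712 CPM, lower than the 3022, 2743 and 2570 CPM of the progenitor gate in each library.

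Timp2 was also broadly present in macrophages, at 1077 CPM in Vehicle (1065 to 1088), 720 in AngII (711 to 730) and 942 in AngII_VWR (928 to 957). That is 37.3%, 32.0% and 44.0% of the fibroblast level, and 84.1%, 68.8% and 77.9% of thinned macrophage-class cells had a UMI. Between AngII and Vehicle the ratio was 0.669-fold (0.658 to 0.680), or -0.57 relative to the median gene, just inside the threshold. Timp2 was higher in Lyve1-gate macrophages (1104, 930 and 1126 CPM) than outside that gate (593, 430 and 519 CPM). Within the Lyve1 gate AngII was lower than Vehicle, as it was outside it.

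Timp3, the inhibitor that binds to the extracellular matrix (chr10:86300372-86349506, plus strand), was at 627 CPM in the fibroblast class of Vehicle (622 to 633), 610 in AngII (605 to 616) and 970 in AngII_VWR (962 to 978). Vehicle and AngII nearly coincided and AngII_VWR was higher. AngII_VWR over AngII was 1.59-fold (1.57 to 1.61), which falls to 0.56 on the log2 scale relative to the median gene, just short of the threshold. After thinning, 57.6%, 56.8% and 66.6% of fibroblast-class cells had a UMI. The higher level in AngII_VWR was found in the progenitor gate (635, 677 and 909 CPM), in the activated gate (504, 507 and 841 CPM) and in ungated cells (571, 754 and 1170 CPM), but not in the Saa3 gate.

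Outside fibroblasts Timp3 was high in endothelial and smooth muscle cells. The endothelial gate (at least 0.2% of UMIs in Pecam1, Cdh5, Egfl7, Emcn and Cldn5; 66, 164 and 82 cells) had 1859 CPM in Vehicle (1784 to 1936), 1796 in AngII (1726 to 1869) and 2403 in AngII_VWR (2276 to 2535). A smooth muscle gate had 837 CPM in the 579 cells of Vehicle, 877 in the 18 of AngII and 1596 in the 45 of AngII_VWR. A Schwann gate had 900 and 1065 CPM in the 20 cells of AngII and 37 of AngII_VWR, but these cells also carried 5613 and 7058 CPM of fibroblast markers beside 7472 and 6610 of Schwann markers. Macrophage-class Timp3 was at 16.3, 9.41 and 49.4 CPM, or 2.60%, 1.54% and 5.09% of the fibroblast level, close to the fibroblast markers' share.

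Timp4, the inhibitor with the narrowest tissue distribution (chr6:115241892-115252205, minus strand), was nearly absent from fibroblasts and macrophages, at 0.651 CPM or less in both classes. Among the remaining cells it was at 21.6 CPM in Vehicle (20.0 to 23.4), 99.0 in AngII (93 to 105) and 24.9 in AngII_VWR (21.7 to 28.3). Between AngII and Vehicle the ratio was 4.57-fold (4.14 to 5.06), but the cells behind these values differed. In Vehicle 633 of the 644 UMIs came from the smooth muscle gate, which held 579 cells there, 18 in AngII and 45 in AngII_VWR. In AngII 888 of the 1017 UMIs came from the endothelial gate.

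The endothelial cells themselves were of different kinds. In Vehicle 49 of the 66 endothelial-gate cells had a UMI of the lymphatic genes Prox1 or Mmrn1, in AngII 33 of 164 and in AngII_VWR 34 of 82. Cells with such a UMI had 0.952, 5.81 and 0 CPM of Timp4, from 1, 3 and 0 UMIs. Cells without one had 31.1 CPM in the 17 cells of Vehicle (11.4 to 67.7), 1054 in the 131 of AngII (986 to 1126) and 928 in the 48 of AngII_VWR (785 to 1089). The AngII and AngII_VWR intervals overlapped there. The same cells had 51.8, 4481 and 3419 CPM of Cd36 and 316, 37657 and 27869 CPM of Fabp4, lipid-handling genes of capillary endothelium. Timp3 was the other way round, at 1967, 2905 and 2885 CPM with a lymphatic UMI and 1270, 1114 and 1214 without. The split was chosen after the values had been seen, and fewer cells of a kind and less RNA per cell cannot be told apart in the pooled level.

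In the macrophage class 5 members were measured between AngII and Vehicle, of which 3 were higher (Mmp2, Mmp14 and Mmp19) and 1 lower (Timp3), where 6.75% of 8128 measured genes were higher and 6.19% lower. Between AngII_VWR and AngII 9 were measured, of which 6 were higher (Mmp2, Mmp3, Mmp12, Mmp23, Timp1 and Timp3) and 0 lower, where 7.96% of 8509 were higher and 8.19% lower. The level minimum had to be met in the higher library only. In the first comparison Mmp2 (5.86 CPM) and Mmp14 (4.23) were under it in Vehicle, and Timp3 (9.41) in AngII. In the second, Mmp3 (8.48), Mmp12 (4.99), Mmp23 (6.98), Timp1 (8.74) and Timp3 (9.41) were under it in AngII. These members entered through the library where they were higher, so the counts are not read against the shares of all genes. Of those 6, Mmp2, Mmp3, Mmp23, Timp1 and Timp3 were at 4.99% to 7.6% of their fibroblast level in AngII_VWR and at 1.42% to 2.89% in AngII, beside 5.88% and 2.18% for the fibroblast markers. Mmp12 was the exception, at 2569% of its fibroblast level in AngII and 2400% in AngII_VWR. Subtracting a profile of the other cells at 5% of UMIs left 3: Mmp12 (21.0 against 5.10 CPM) and, against 0 in AngII, Mmp3 (24.4 CPM) and Timp1 (13.3 CPM). The 5% was the same in both libraries, above the markers' 2.18% in AngII and below their 5.88% in AngII_VWR. It therefore cannot decide what part of the count of 6 is carried-over fibroblast RNA, which was not tested further. Between AngII and Vehicle Mmp2 too was near the markers' share, with macrophage levels of 5.86 and 12.0 CPM for Mmp2, or 2.25% and 2.00% of the fibroblast level.

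**Figure D4:**
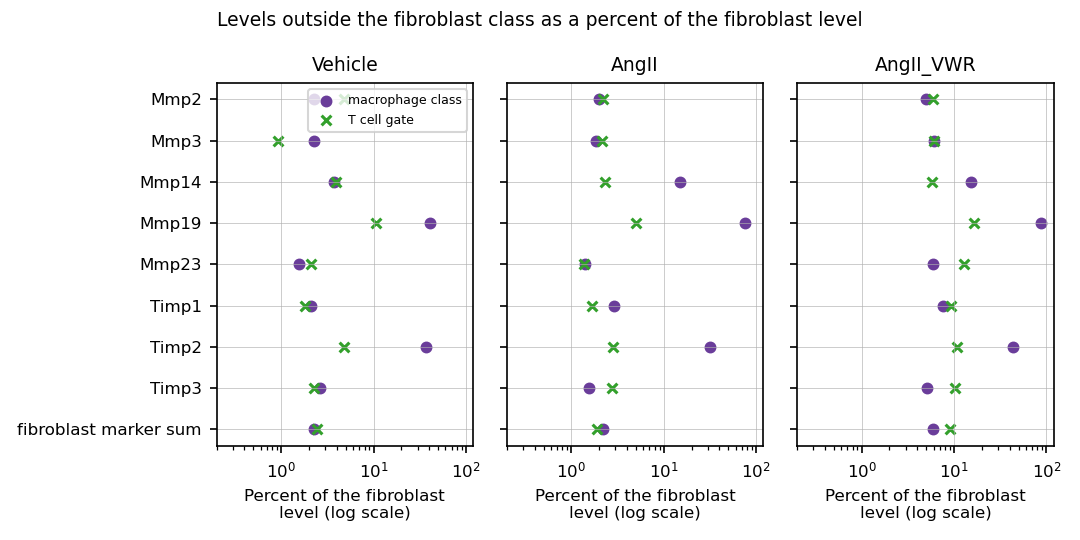
Level of each gene in the macrophage class (filled circles) and in the T cell gate (crosses) as a percent of its fibroblast-class level (log axis) in each library, with the summed fibroblast markers in the bottom line; Mmp12 and Timp4 are left out because their fibroblast levels are under 1 CPM. Timp2 and Mmp19 lie far to the right of the marker sum in macrophages in all 3 libraries and Mmp14 in AngII and AngII_VWR, while Mmp2, Mmp3, Mmp23, Timp1 and Timp3 lie near it.

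**Figure D5:**
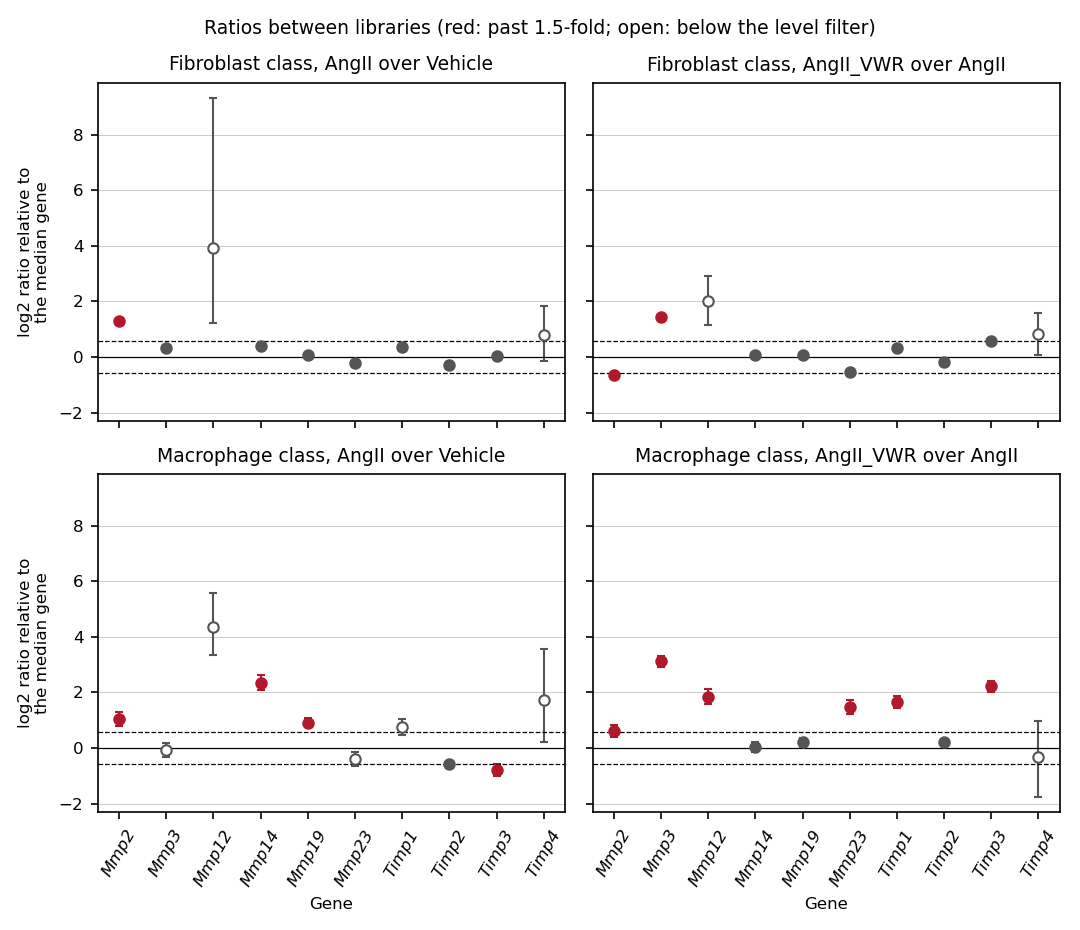
Log2 ratios between libraries relative to the median measured gene in the fibroblast and macrophage classes; dashed lines mark 1.5-fold, red points are past it, open points are below the level minimum, and bars are exact conditional 95% intervals for counting error. In fibroblasts Mmp2 stands at 1.30 in AngII over Vehicle and Mmp3 at 1.44 in AngII_VWR over AngII; in macrophages Mmp14 stands at 2.35 in AngII over Vehicle.

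In the remaining cells all 10 members were measured, and the mix of cells changed with the library: the 8 smooth muscle markers summed to 17493 CPM in Vehicle, 1445 in AngII and 1657 in AngII_VWR. Fibroblast markers summed there to 4294, 2847 and 5705 CPM, and the 5 erythroid markers to 60008, 14846 and 9009. Between AngII and Vehicle 3 members were higher (Mmp12, Mmp19 and Timp4) and 3 lower (Mmp3, Mmp23 and Timp2), where 18.9% of 10251 genes were higher and 16.3% lower. Mmp12 met the level minimum in AngII only (18.0 against 9.11 CPM in Vehicle). Between AngII_VWR and AngII 5 were higher (Mmp2, Mmp3, Mmp23, Timp1 and Timp2) and 1 lower (Timp4), where 8.45% of 10111 were higher and 10.9% lower. The fibroblast markers were higher in AngII_VWR beside those 5 fibroblast-expressed members, and their part in the count was not tested.

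Timp1 was more frequent in fibroblasts with Mmp3 than in those without it in each library, with intervals that did not overlap. Among thinned fibroblast-class cells with an Mmp3 UMI, 42.9% had a Timp1 UMI in Vehicle, 49.0% in AngII and 42.9% in AngII_VWR, against 34.3%, 38.6% and 35.1% of cells without one. Among cells with an Mmp14 UMI, 38.6%, 63.1% and 51.7% had an Mmp2 UMI, against 35.1%, 54.4% and 44.8% of the others. Mmp2 and Timp3 showed the opposite order: 57.0%, 53.6% and 62.4% of Mmp2-positive cells had a Timp3 UMI, against 57.9%, 60.8% and 70.2% of Mmp2-negative cells. In Vehicle the intervals overlapped for Mmp14 with Mmp2 (35.5% to 41.7% against 33.7% to 36.5%). They also overlapped there for Mmp2 with Timp3 (54.8% to 59.2% against 56.3% to 59.6%). In AngII and AngII_VWR the intervals of these pairs did not overlap. For Mmp3 and Timp3 the shares were 53.7%, 54.3% and 67.3% with Mmp3 against 58.7%, 57.5% and 66.0% without. Their intervals overlapped in AngII and AngII_VWR. Timp2 was found in 96.4% to 97.4% of cells with Mmp2 and in 96.1% to 97.9% of those without, and in 96.4% to 98.2% of cells with Mmp14 and 96.4% to 97.6% of those without. These shares describe cells of single libraries and were not tested.

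Of 17 other matrix metalloproteinases listed, 16 were in the matrices and 2 or 3 were measured in the fibroblast class and 2 in the macrophage class. In fibroblasts Mmp16, a membrane-bound relative of Mmp14, was at 26.4, 23.7 and 25.2 CPM and Mmp11 at 7.98, 10.4 and 7.83. Mmp13, a collagenase, was past 1.5-fold in AngII_VWR over AngII, at 10.7 against 0.134 CPM, where 605 of its 627 UMIs lay in 10 Saa3-gate cells and 1 cell alone had 365. In macrophages Mmp9, the other gelatinase, was at 90.1 CPM in Vehicle (86.9 to 93.5), 45.9 in AngII (43.6 to 48.3) and 60.1 in AngII_VWR (56.5 to 63.8). Mmp13 in macrophages was at 18.0, 14.2 and 1.84 CPM, from 111, 69 and 24 cells. Between AngII and Vehicle 0 other MMPs passed the threshold in fibroblasts and 1 did in macrophages, Mmp9, which was lower. Between AngII_VWR and AngII 1 passed in each class, Mmp13, which was higher in fibroblasts and lower in macrophages.

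The list of 19 activators, inhibitors and receptors of the system was fully present. Among them 16 were measured in the fibroblast class, and between AngII and Vehicle 2 were higher and 2 lower. The higher ones were Serpine2, a serine protease inhibitor (59.9 against 32.7 CPM), and Sdc1, a cell-surface proteoglycan (37.6 against 14.5). The lower ones were Pcsk6, a proprotein convertase (164 against 341 CPM), and Plaur, the urokinase receptor (33.3 against 56.6). Between AngII_VWR and AngII 1 was higher, Furin, a convertase that activates membrane-bound MMPs (45.0 against 26.8 CPM), and 3 were lower, among them Plau, or urokinase (5.63 against 12.6), and Plaur (22.2 against 33.3). In macrophages 10 were measured between AngII and Vehicle, of which 0 were higher and 2 lower, among them Plau (67.3 against 179 CPM). Between AngII_VWR and AngII 11 were measured, with Plat, tissue plasminogen activator, higher (13.0 against 4.45 CPM) and Cd44, the hyaluronan receptor, lower (393 against 558). The shares of all measured genes past the threshold are those given above for each class and comparison, and nothing particular to the list is read from its counts.

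By profile over the 9 library-by-class levels, the genes most like each member, out of 5363 genes, were described by Pearson's r of log2(CPM + 1). Mmp2 was most like Col3a1, C1qtnf6 and Thbs2 (r = 0.995 for Col3a1), and Timp4 most like Gimap4, Emcn and Cldn5 (0.998 for Gimap4). Mmp12 was most like Jaml, Mindy3 and Thoc2 (0.981), and Mmp14 most like Slc44a1, Itfg1 and Emilin1 (0.982). Mmp3 was most like Romo1, Sec11a and Smim11 (0.991), and Mmp19, with the lowest likeness of the 10, most like Eif3l, Uba1 and Rap2a (0.923). Mmp23 was most like Bdh2, Kcnj8 and Dnajc25 (0.997), Timp1 most like Tsn, C1d and Sfrp4 (0.995), Timp2 most like Lrpap1, Bad and Serpinb6a (0.984), and Timp3 most like Map4k5, Ntn1 and Nckap1 (0.997). The 9 points share 3 libraries and their depths, and no p is given.

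By the GENCODE annotation of mm10, Timp1, Timp3 and Timp4 lie over the synapsin genes Syn1, Syn3 and Syn2 on the opposite strand, Mmp12 overlaps Mmp1b, Mmp19 overlaps Tmem198b, and Timp2 overlaps Cep295nl on its own strand. Whether the counting used strand is not given in the sources used here. Whether reads of these partners entered the counts of the members was not tested.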

How the data were processed

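Cells were profiled by droplet-based 3′ single-cell RNA sequencing, 1 library for each of 3 groups. Per the labels' protocols the peeled adventitia was digested with Liberase and elastase, strained and treated to lyse red blood cells. The deposited matrices hold counts of UMIs per gene and barcode, with no normalization, written by Cell Ranger 7.0.1 (Vehicle, AngII) or 7.1.0 (AngII_VWR) per the file headers. The build was mm10, per the submitters' processing notes. Whether intronic reads were counted is not given in the sources used here. Totals were 165977330, 141570158 and 105679209 UMIs over 15093, 10515 and 19633 barcodes.

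Cells needed 300 or more detected genes, 500 or more UMIs and a mitochondrial share of 10% or less, and the highest Scrublet scores (scanpy 1.11.5) were removed at 0.8% per 1000 cells, leaving 12324, 9115 and 16125 cells. Scrublet's own threshold marked 248, 135 and 0. UMIs were summed per class and given per 1000000 UMIs of the class (CPM). Intervals are exact (Poisson for levels, conditional for ratios, Clopper-Pearson for shares). No test was possible with 1 library per group, and a difference in Cell Ranger version, depth or preparation cannot be told apart from the group. All members are named; genes of the related lists are named where past the threshold and at 10 CPM or more, and a few more were added after their values were seen. The members, lists and gates were chosen with earlier results of these data known. The functions for ratios and intervals were tested on simulated data. Scripts ran under Python 3.11.15 with pandas 2.3.3, scipy 1.17.1 and numpy 2.4.6. In all, 16 alternative settings were tried. A gene of the related lists is counted but not reported here by name.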

Additional observations from a re-analysis of the deposited data

Results flagged for a closer look

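In 2 genes the fibroblast and macrophage classes stood past 1.5-fold in opposite directions between AngII_VWR and AngII. The difference between the classes was not tested, since each group is 1 library. Mmp2 had a log2 ratio relative to the median gene of -0.64 in the fibroblast class and 0.63 in the macrophage class. Macrophage-class Mmp2 was at 12.0 and 20.8 CPM, which is 2.00% and 4.99% of the fibroblast level, beside 2.18% and 5.88% for the fibroblast markers. With a profile of the other cells subtracted at 5% of UMIs they were 0 and 2.21 CPM, under the 10 CPM minimum. That 5% was above the markers' share in AngII and below it in AngII_VWR. Mmp13 had a relative log2 ratio of 6.22 in the fibroblast class and -3.12 in the macrophage class. In the fibroblast class of AngII_VWR 1 cell held 365 of its 627 UMIs. In the macrophage class 445 UMIs lay in 69 cells of AngII and 32 UMIs in 24 cells of AngII_VWR.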

How the results depend on the processing

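Counts of members past the threshold moved by over 1.5 times in 6 cases. In the fibroblast class, AngII against Vehicle gave 2 instead of 1 with both class thresholds doubled, where Mmp23 was lower too, at -0.60. AngII_VWR against AngII gave 1 instead of 2 with both class thresholds doubled, with 2-fold in place of 1.5-fold, and without the cells of the activated gate. In the macrophage class, AngII against Vehicle gave 2 instead of 4 with 2-fold, and AngII_VWR against AngII gave 3 instead of 6 with 5% free RNA subtracted. Without centring on the median gene the fibroblast count of AngII_VWR against AngII was 2 higher and 0 lower instead of 1 and 1. Smaller moves were also seen. In fibroblasts of AngII_VWR against AngII the count was 3, with Mmp23 lower, when cells were thinned or weighted equally. In macrophages of AngII against Vehicle it was between 3 and 6 in the other settings, where Timp2 was lower past the threshold in 2 settings (-0.59 and -0.64), and for AngII_VWR against AngII between 4 and 6. The higher level of Mmp2 in fibroblasts of AngII against Vehicle stayed past the threshold in all 13 alternatives run on it (1.01 to 1.33), and that of Mmp3 in AngII_VWR against AngII in all 13 (1.23 to 1.58). The lower level of Mmp2 in AngII_VWR stayed past it in 10 of 13 (-0.69 to -0.40). In macrophages Mmp14 in AngII against Vehicle stayed past it in all 11 that gave a ratio (1.40 to 2.41) and Mmp19 in all 12 (0.78 to 1.00), while Mmp2 did so in 9 of 11 (0.32 to 1.11). Mmp12 in macrophages of AngII_VWR against AngII stayed past it in 11 of 12 (0.79 to 2.17). The cause was not tested. No paired analysis was possible because each group is 1 library, and for the same reason no library could be left out. Leaving Saa3-gate cells out of the macrophage class was added after the data were seen. Depth limits Mmp12 and Timp4 most, which rest on few UMIs.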

Other observations

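Other members of the family lay in cells outside the fibroblast and macrophage classes. Mmp9, a gelatinase stored in neutrophil granules, was at 2.72 CPM in the remaining cells of Vehicle, 4.77 in AngII and 78.7 in AngII_VWR. A neutrophil gate (at least 1% of UMIs in S100a8 and S100a9) held 10, 10 and 128 cells, with 58, 15 and 263 Mmp9 UMIs of the 81, 49 and 703 in remaining cells, so most of those in AngII and AngII_VWR lay outside the gate. In the 128 cells of AngII_VWR Mmp9 was at 1134 CPM (1001 to 1280). Mmp8, the neutrophil collagenase, had 59, 6 and 9 UMIs in the same cells, so the Vehicle cells had about as many Mmp8 as Mmp9 UMIs and the AngII_VWR cells far fewer.

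Mmp15, a membrane-bound member, was at 54.6 CPM in the endothelial gate of AngII (42.8 to 68.5, 74 UMIs in 54 of 164 cells), 14.4 in AngII_VWR (6.2 to 28.3, 8 UMIs) and 1.61 in Vehicle (0.195 to 5.81, 2 UMIs), beside the change in kinds of endothelial cells described above. Mmp17 was at 33.1 CPM in the smooth muscle gate of Vehicle (29.9 to 36.6) and 48.4 in that of AngII_VWR (29.6 to 74.8). Mmp25 was at 7.88 CPM in remaining cells of the MHC class II gate in Vehicle, 38.9 in AngII (33 to 45.5) and 13.2 in AngII_VWR (9.35 to 18.1).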
